A study of Mus musculus with 12 samples.

Results

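Nts, Adcyap1, Snap25, Lrrn3 and Lrrtm3 are genes best known from neurons, and they were followed here in granulosa cells, the somatic cells that surround the oocyte in the ovarian follicle. They were chosen because their levels were strongly higher after hCG on bERKO arrays, and every probe set of the expression array that names only 1 of these genes was taken. That gave 10 probe sets for 5 genes, out of 34945 one-gene probe sets for 18193 genes. The difference between hCG and PMSG in bERKO cells chose the genes, so it is given below as a description with no test.

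Granulosa cells were cut by laser from preovulatory follicles of mice 3 weeks old, and each of 4 groups held 3 arrays. The bERKO hCG and WT hCG groups had received PMSG and then hCG and were collected 4 h after hCG. The bERKO PMSG and WT PMSG groups had received PMSG without hCG and were collected 48 h after it, so every animal had been primed with PMSG. bERKO mice carry a disrupted Esr2, the gene of estrogen receptor beta, and WT mice are wild type. PMSG acts like follicle-stimulating hormone, and hCG acts like the luteinizing hormone surge that starts ovulation. The labels describe replicates within a group as biological, but they do not say how many animals an array stands for, and p-values measure the spread between these arrays.

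Nts encodes the precursor of neurotensin, a peptide hormone of brain and gut. Adcyap1 encodes the precursor of PACAP, a peptide that acts on receptors coupled to cAMP and that is known to be made by granulosa cells around the time of ovulation. Snap25 encodes a SNARE protein, part of the machinery that fuses vesicles with the plasma membrane. Lrrn3 and Lrrtm3 encode membrane proteins with leucine-rich repeats on the outer face of the cell, and Lrrtm3 takes part in the adhesion between the sides of a synapse. The surge of luteinizing hormone raises cAMP in granulosa cells, and genes of the ovulatory response are switched on within hours.

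On assembly GRCm38.p6, Nts lies at chr10:102481756-102490418, Adcyap1 at chr17:93198245-93206541, Snap25 at chr2:136713439-136782428, Lrrn3 at chr12:41451668-41486057 and Lrrtm3 at chr10:63928497-64090255. Because these genes were selected for a shared response to a hormone that acts through cAMP, the 250 bases before the transcription start are shown for 3 of the 5 genes, from RefSeq on GRCm38.p6. Capitals mark matches to the cAMP response element TGACGTCA or its half-site TGACG, the AP-1 site TGANTCA, the nuclear receptor half-site AGGTCA or the progesterone receptor half-site TGTTCT, on either strand. Every full element also holds the half-site, by its letters.
Nts (chr10:102490419-102490668, minus strand): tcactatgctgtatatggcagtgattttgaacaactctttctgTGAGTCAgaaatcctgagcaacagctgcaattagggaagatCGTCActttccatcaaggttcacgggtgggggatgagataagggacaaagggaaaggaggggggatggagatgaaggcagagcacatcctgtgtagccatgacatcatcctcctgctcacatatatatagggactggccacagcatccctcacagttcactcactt
Adcyap1 (chr17:93198918-93199167, plus strand): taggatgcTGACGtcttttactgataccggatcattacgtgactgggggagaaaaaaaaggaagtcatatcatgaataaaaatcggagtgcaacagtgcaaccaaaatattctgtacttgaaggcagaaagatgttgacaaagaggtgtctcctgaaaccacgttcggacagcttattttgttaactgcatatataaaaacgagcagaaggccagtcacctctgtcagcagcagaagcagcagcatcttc
Lrrtm3 (chr10:64090256-64090505, minus strand): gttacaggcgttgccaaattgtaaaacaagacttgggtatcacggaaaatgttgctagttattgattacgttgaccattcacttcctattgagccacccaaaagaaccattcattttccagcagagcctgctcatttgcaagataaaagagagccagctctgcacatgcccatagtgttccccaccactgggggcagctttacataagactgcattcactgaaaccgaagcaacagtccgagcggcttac

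The Nts stretch held an AP-1 match 207 bases before the start and a half-site of the cAMP response element, on the strand opposite to the one printed, 166 bases before it. The Adcyap1 stretch held 1 half-site, 242 bases before this start and 91 bases before another annotated start of the gene. These starts lie inside the span given above for Adcyap1, and the bases before that span were not searched. The Lrrtm3 stretch held no match to these 5 motifs. Among 32851 promoters searched over the same window, which also took in the 50 bases after the start, the half-site TGACG was present in 20.8%, TGANTCA in 7.81%, TGACGTCA in 1.79%, AGGTCA in 16.3% and TGTTCT in 19.0%. A match describes letters in this window and shows no binding.

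A pair of arrays stood apart from the rest. The ratio of the 3' to the 5' Gapdh control probe set, a sign of RNA quality that is high for broken or shortened transcripts, was 32.2 on WT hCG replicate 1 and 23.7 on bERKO PMSG replicate 3, against 4.72 to 11.2 on the other 10 arrays. Pgr, the progesterone receptor gene that the luteinizing hormone surge switches on, had intensities of 17379, 15312 and 17292 on the bERKO hCG arrays, 22.5, 7659 and 8761 on the WT hCG arrays, and at most 79.3 on any PMSG array. The WT hCG replicate 1 array therefore lacked the Pgr signal of the other WT hCG arrays. Ptgs2, another marker of the ovulatory response, was at 277 on that array. It was at 4467 and 10237 on WT hCG replicates 2 and 3, and at most 32.3 on any PMSG array. The sum over 12 measured granulosa markers was 97451 to 118607 in bERKO hCG, 117851 to 162809 in WT hCG, 151513 to 182208 in bERKO PMSG and 147175 to 168382 in WT PMSG, so all groups carried strong granulosa signal. Esr2 was lower in bERKO means, by -0.66 (SE 0.37) after hCG and -1.24 (SE 0.37) after PMSG on the log2 scale, and neither difference passed in limma (adjusted p = 0.437 and 0.336). Whether its probe set covers the disrupted stretch was not known, so this checks the genotype only in part. Median intensity per array was 49.1 to 112, and 18.7% to 30.0% of an array's probe sets lay under 16.

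Nts was among the brightest of these genes after hCG and near the bottom of the scale before it. Its deposited intensities were 16531, 16010 and 18235 on bERKO hCG replicates 1 to 3, and 14.1, 1809 and 8918 on WT hCG replicates 1 to 3. They were 3.31, 11.0 and 24.7 in bERKO PMSG, and 1.80, 23.9 and 12.5 in WT PMSG. All bERKO hCG arrays lay above every other array, while the WT hCG arrays ran from the PMSG level on replicate 1 to a level near the bERKO hCG arrays on replicate 3.

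Differences between groups were taken on the scale of log2(intensity + 16), after quantile normalization across arrays, each with a standard error (SE) from limma. The 4 groups shared 1 estimate of the spread per probe set, also where an array was left out. WT tests therefore drew part of their error from the bERKO arrays that chose the genes, and are not separate from them. For Nts, the standard deviation was 4.38 in WT hCG and 0.08 in bERKO hCG. The offset of 16 understates the change of dim genes. For Nts, hCG minus PMSG was 9.09 (SE 1.52) in bERKO. In WT it was 4.88 (SE 1.52), the 6th highest of the 34945 probe sets, and it did not pass in limma (adjusted p = 0.147). The WT response of Nts without WT hCG replicate 1 was 7.30 and passed in limma (adjusted p = 0.000909). Without WT hCG replicate 3, where Nts was brightest in WT, it was 3.03 and did not pass (adjusted p = 0.303, limma).

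Adcyap1, the other peptide precursor, had 2 probe sets, and the brighter one (1423427_at) gave intensities of 4534, 5173 and 6063 on the bERKO hCG arrays and 20.8, 168 and 1766 on the WT hCG arrays. The same probe set gave 15.2, 1.72 and 30.6 in bERKO PMSG and 0.684, 9.15 and 34.9 in WT PMSG. Again the lowest bERKO hCG array lay above the highest WT hCG array, and WT hCG replicate 1 lay within the PMSG range. The other probe set (1441778_at) was dimmer, at 1940, 1636 and 1455 in bERKO hCG, 33.2, 82.7 and 633 in WT hCG, 14.4 to 30.1 in bERKO PMSG and 7.54 to 22.6 in WT PMSG. On this probe set every WT hCG array lay above every PMSG array as deposited, replicate 1 only narrowly, but after normalization replicate 1 lay below bERKO PMSG replicate 3.

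The bERKO response of Adcyap1 was 7.23 (SE 1.07) on the brighter and 5.19 (SE 0.71) on the dimmer probe set. The WT responses were 2.91 (SE 1.07) and 1.94 (SE 0.71), and neither passed in limma (adjusted p = 0.217 and 0.215). With WT hCG replicate 1 left out, the brighter probe set gave 4.21 and passed in limma (adjusted p = 0.0489), and the dimmer one gave 2.68 and did not (adjusted p = 0.0745). With WT hCG replicate 3 left out they gave 1.39 and 0.86, and neither passed in limma (adjusted p = 0.406 and 0.351). The profiles of both probe sets over the 12 arrays, each centred on its own mean, differed by a root mean square of 1.12 on the log2 scale.

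Snap25, the vesicle fusion gene, also had 2 probe sets, with very similar profiles (root mean square difference 0.54). The first (1447763_at) gave 8611, 9370 and 10190 in bERKO hCG and 13.8, 2704 and 3750 in WT hCG. It gave 14.1, 12.8 and 14.8 in bERKO PMSG and 14.3, 16.6 and 11.6 in WT PMSG. WT hCG replicate 1 thus lay within the range of the PMSG arrays, while replicates 2 and 3 were close to each other and clearly below the bERKO hCG arrays.

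The second Snap25 probe set (1416828_at) gave 9523, 10747 and 10496 in bERKO hCG and 1.37, 3024 and 3357 in WT hCG. It gave 1.37 to 36.5 in bERKO PMSG and 1.09 to 16.5 in WT PMSG, so here too WT hCG replicate 1 lay within the PMSG range and the other WT hCG arrays lay below the bERKO hCG arrays. The bERKO responses were 8.10 (SE 1.36) and 8.56 (SE 1.54) for 1447763_at and 1416828_at. The WT responses of Snap25 were 4.45 (SE 1.36) and 4.52 (SE 1.54), the 9th and 8th highest of all probe sets, and did not pass in limma (adjusted p = 0.139 and 0.182). With WT hCG replicate 1 left out they were 6.75 and 7.06 and both passed in limma (adjusted p = 3.36e-06 and 0.000157). With WT hCG replicate 3 left out they were 3.16 and 3.20 and did not pass (adjusted p = 0.306 and 0.384, limma).

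Lrrn3, a neuronal leucine-rich repeat gene, was measured by 1 probe set. Its intensities were 3784, 2644 and 3189 in bERKO hCG and 35.4, 171 and 472 in WT hCG. They were 2.90, 10.5 and 5.01 in bERKO PMSG and 36.3, 2.19 and 59.6 in WT PMSG. Every bERKO hCG array was far brighter than the brightest WT hCG array, and WT hCG replicate 1 fell among the WT PMSG arrays. The bERKO response was 7.08 (SE 0.68), and the WT response was 1.78 (SE 0.68), which did not pass in limma (adjusted p = 0.234). Leaving out WT hCG replicate 1 gave a WT response of 2.59 that also did not pass (adjusted p = 0.0581, limma), and leaving out WT hCG replicate 3 gave 1.03 (adjusted p = 0.494, limma).

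Lrrtm3, the synaptic adhesion gene, followed a different pattern, and the label of a gene induced by hCG held for it in bERKO arrays but not in WT arrays. Its brightest probe set (1440112_at) gave intensities of 527, 817 and 809 in bERKO hCG and 55.1, 43.9 and 79.5 in WT hCG. The same probe set gave 23.4, 103 and 2.48 in bERKO PMSG and 459, 200.1 and 389 in WT PMSG. The gene was therefore well measured in WT cells before hCG and dimmer on all 3 WT arrays after it, while bERKO cells showed the reverse order.

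The other 3 probe sets of Lrrtm3 share 1 target record and are not independent measurements of the transcript. Probe set 1434760_at gave 275, 421 and 325 in bERKO hCG, 35.9, 21.9 and 183 in WT hCG, 25.2, 54.2 and 33.8 in bERKO PMSG, and 197, 235 and 412 in WT PMSG. Probe set 1434761_at gave 321 to 397 in bERKO hCG, 17.3 to 189 in WT hCG, 29.3 to 41.5 in bERKO PMSG and 175 to 223 in WT PMSG. On 1434761_at, WT hCG replicate 3 at 189 fell within the range of the WT PMSG arrays as deposited. The dimmest probe set, 1434759_at, gave 63.6 to 65.9 in bERKO hCG, 2.11 to 23.6 in WT hCG, 1.07 to 9.93 in bERKO PMSG and 67.8 to 103 in WT PMSG.

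After hCG, the bERKO differences of the 4 Lrrtm3 probe sets were 3.97 (1440112_at), 2.55 (1434760_at), 2.57 (1434761_at) and 1.73 (1434759_at), with SEs of 0.31 to 0.55. The WT differences were -2.37, -2.10, -1.58 and -2.08 in the same order. Of these, 1434759_at passed in limma (adjusted p = 0.0157), and the others did not (adjusted p = 0.0663, 0.0696 and 0.139). The passing probe set is also the dimmest, and with log2(intensity + 1) it did not pass (adjusted p = 0.0742, limma), nor without any 1 of the WT PMSG arrays or WT hCG replicate 2 (adjusted p = 0.0622 to 0.0819, limma). It also did not pass with only the 2 WT groups compared, where the bERKO arrays took no part in the estimate of spread. With WT hCG replicate 1 left out, the WT differences of Lrrtm3 were -2.42, -1.91, -1.0 and -1.98, and again only 1434759_at passed in limma (adjusted p = 0.0204). With WT hCG replicate 3 left out they were -2.48, -2.74, -2.17 and -2.36, and all but 1440112_at passed in limma (adjusted p = 0.116, 0.0176, 0.0414 and 0.0144).

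**Figure D1:**
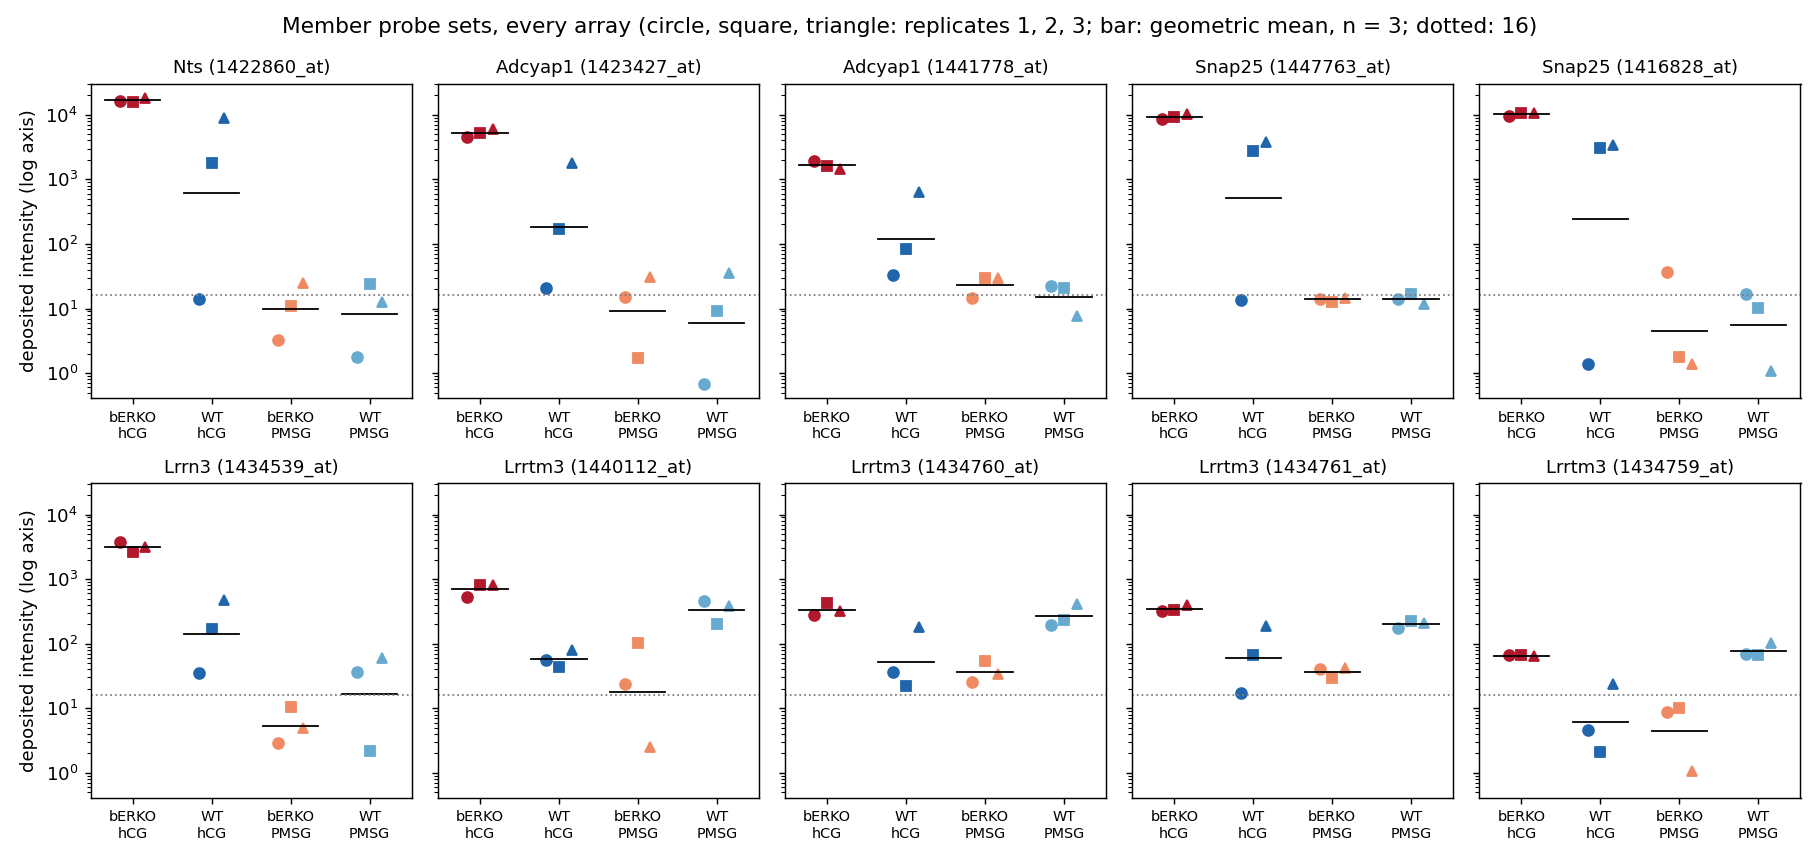
Deposited intensity (log axis) of each of the 10 probe sets on each of the 12 arrays, with circles, squares and triangles for replicates 1, 2 and 3, a bar at the geometric mean of 3 arrays and a dotted line at 16. In the panels of Nts, Adcyap1, Snap25 and Lrrn3 the bERKO hCG arrays are tightly grouped at the top and WT hCG replicate 1 lies at or near the PMSG arrays, while the Lrrtm3 panels have the WT PMSG arrays high as well.

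Over the 10 probe sets together, 0 passed as higher and 1 as lower in the WT response, against 0.415% and 0.644% of all 34945 probe sets. All 10 had an unadjusted limma p under 0.05 there, as did 5417 of the 34945. On the normalized scale, the WT hCG arrays lay wholly above the WT PMSG arrays for 1 probe set and wholly below them for the 4 of Lrrtm3, while 9.74% and 12.7% of all probe sets were so separated. Without WT hCG replicate 1, 4 of the 10 passed as higher (Nts, both of Snap25 and 1 of Adcyap1), against 0.879% of all probe sets in that setting. The bERKO response, which chose the genes, separated the groups for 10 of 10 probe sets, against 15.6% of all. The median difference was 6.14 in bERKO and 1.86 in WT, against -0.10 and -0.03 over all probe sets.

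Since RNA of a whole capture was measured, fewer cells making a transcript and less transcript per cell cannot be told apart in any of these values.

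**Figure D2:**
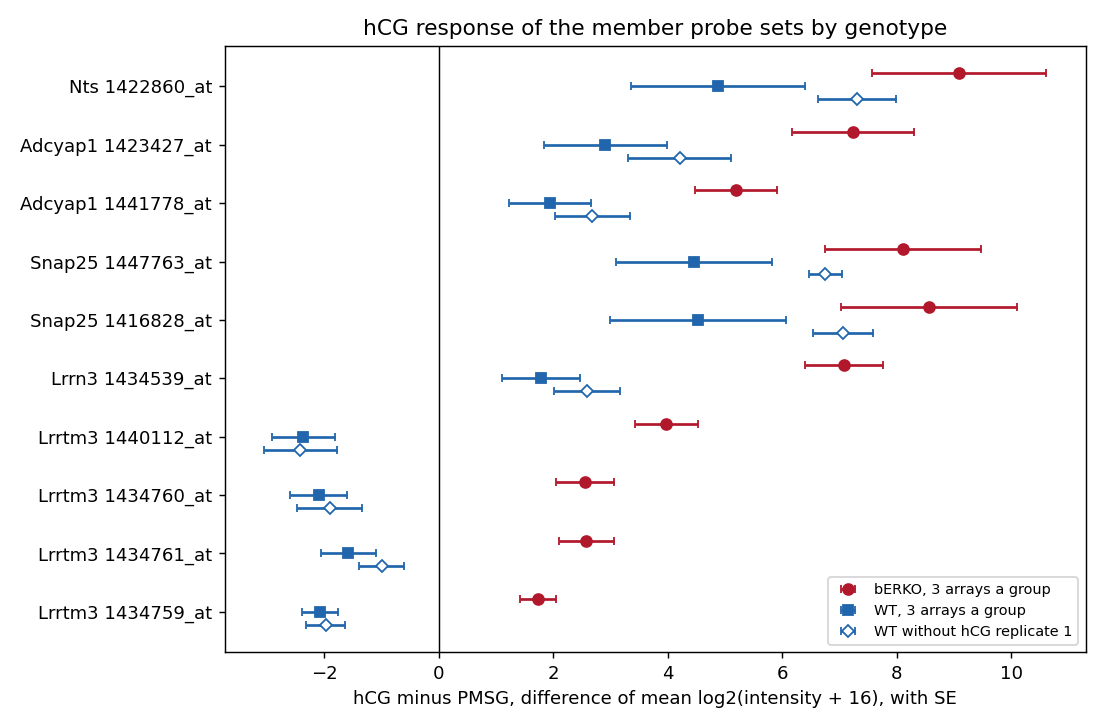
Response to hCG of each probe set, as the difference of mean log2(intensity + 16) between hCG and PMSG arrays with its SE, in bERKO (circles), in WT (squares) and in WT without hCG replicate 1 (open diamonds). The bERKO points all lie above 0, and the 4 WT points of Lrrtm3 lie below it.

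After hCG, all 10 probe sets had higher means in bERKO than in WT, and the groups did not overlap for any of them, against 11.5% of all probe sets so separated. These values use the bERKO arrays that chose the genes and carry no test. The differences were 4.32 for Nts, 4.58 and 3.69 for Adcyap1, 3.72 and 4.11 for Snap25, 4.40 for Lrrn3, and 3.51, 2.49, 2.40 and 1.72 for Lrrtm3. How much of this rested on WT hCG replicate 1 differed from gene to gene. Without that array the difference was 1.90 for Nts and 1.42 and 1.57 for Snap25, but 3.28 and 2.94 for Adcyap1, 3.59 for Lrrn3 and 3.56, 2.30, 1.82 and 1.62 for Lrrtm3. Without WT hCG replicate 3 it was 6.18 for Nts, 5.01 and 5.43 for Snap25, 6.11 and 4.76 for Adcyap1, 5.15 for Lrrn3 and 3.62, 3.13, 2.99 and 2.0 for Lrrtm3. The comparison after hCG and both responses share arrays, so they are not separate evidence of a genotype difference.

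After PMSG the peptide and vesicle genes were at the bottom of the scale in both genotypes. The bERKO minus WT differences were 0.12 for Nts, 0.27 and 0.44 for Adcyap1 and 0.06 and 0.07 for Snap25, with overlapping groups. Lrrn3 differed by -0.90 (SE 0.68), also with overlapping groups. Lrrtm3 was lower in bERKO on all 4 probe sets, by -2.84, -2.16, -1.75 and -2.09, with no overlap between the groups, a separation seen in 7.22% of all probe sets. Without bERKO PMSG replicate 3, where 1440112_at had its lowest value, that probe set gave -2.20.

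The difference between the responses, bERKO minus WT, was 4.21 (SE 2.15) for Nts, 5.30 (SE 0.97) for Lrrn3 and 6.35 (SE 0.78) for Lrrtm3 1440112_at. The remaining probe sets lay between 3.25 and 4.65. For Nts, Adcyap1, Snap25 and Lrrn3 this difference came with a WT mean difference of the same sign, which did not pass with all arrays. For Lrrtm3 it came with WT values of the opposite sign. On all 4 Lrrtm3 probe sets every hCG array lay above every PMSG array in bERKO and below every PMSG array in WT on the normalized scale, a pattern shared by 182 probe sets (0.521% of 34945). Lrrtm3 was chosen on its bERKO response, so this count describes it and is no test.

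Lrrtm3 had the profile least like those of the other 4 genes. Likeness was measured as the root mean square difference between profiles over the 12 arrays, each centred on its own mean, with the brightest probe set of each gene. Nts and Snap25 differed by 0.69 and Adcyap1 and Lrrn3 by 1.0. Adcyap1 differed from Snap25 by 1.25 and from Nts by 1.33, and Lrrn3 from Snap25 by 1.57 and from Nts by 1.90. Lrrtm3 differed by 2.16 from Lrrn3, 2.87 from Adcyap1, 3.44 from Snap25 and 3.85 from Nts. Predicted and unnamed genes were skipped in the search for nearest genes, here and below. The nearest to Nts were then Ptx3 (0.64), Snap25 (0.69), Sult1e1 (0.85) and Pgr (0.93), against a median of 4.34 over all genes. Ptx3 encodes a component of the matrix that forms around the oocyte before ovulation. Its probe sets disagreed, with responses of 8.35 in bERKO and 4.61 in WT on the one used here and 0.71 and -0.52 on the other.

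Snap25 was nearest to Pgr (0.54), Ptx3 (0.56), Egr3 (0.65) and Btc (0.68), with a median of 3.89 over all genes. Btc encodes an EGF-like growth factor and Egr3 an immediate early transcription factor. Adcyap1 was nearest to Prkg2 (0.69), a cGMP-dependent kinase, then Egr3 (0.92), the choline transporter gene Slc5a7 (0.98) and Lrrn3 (1.0), against a median of 3.39. Lrrn3 was nearest to Slco1a1 and Enpp3 (0.62 each), St8sia4 (0.86) and Srxn1 (0.87), against 2.96. The 4 genes nearest to Lrrtm3 were Adgrg6 (0.78), Slitrk6 (0.82), Arfgef3 (0.83) and Stx11 (0.87), against 1.88, and their WT responses lay between -1.69 and -1.23. Likeness here means only that levels moved alike over 12 arrays, 6 of which had received hCG. The bERKO arrays that chose the genes are among them, so closeness to other genes with strong hCG rises follows in part from that choice. These distances are a description and no test.

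**Figure D3:**
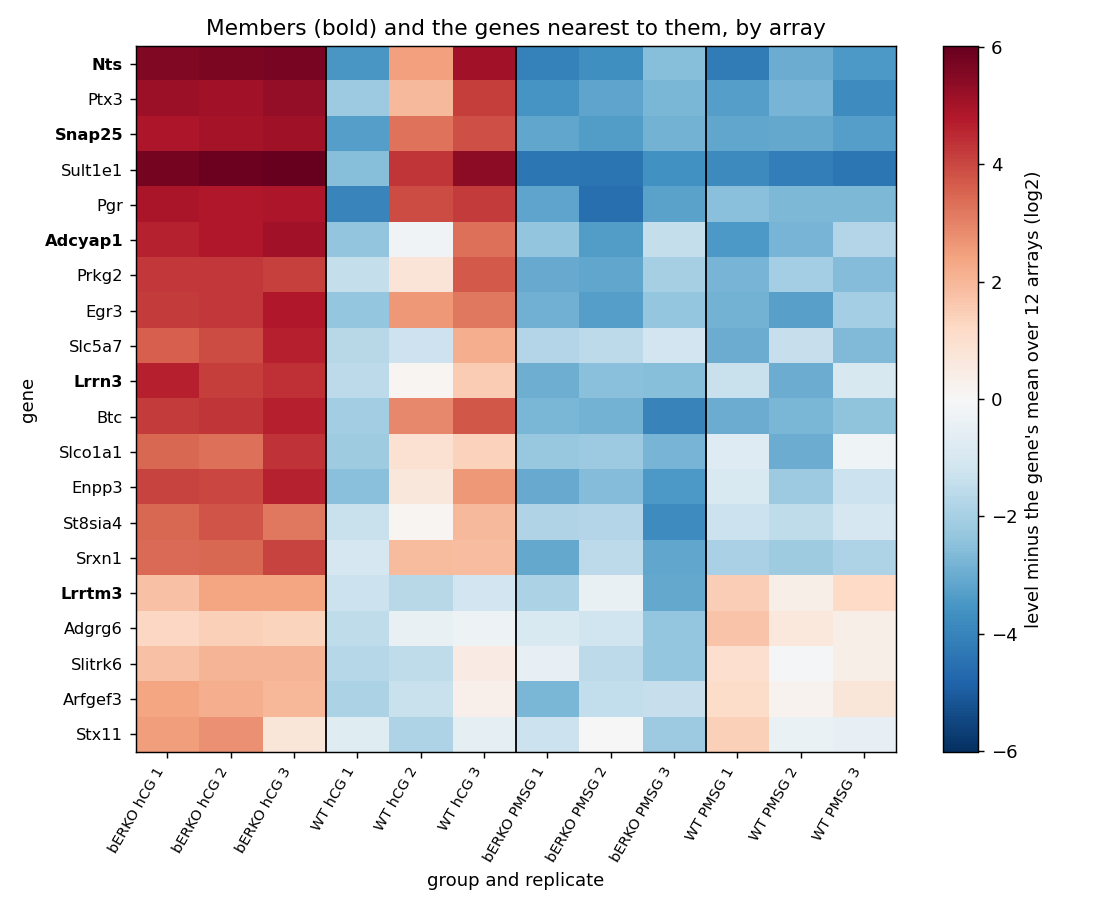
Level of each gene (bold) and of the genes nearest to them on each array, as log2(intensity + 16) minus the gene's own mean over 12 arrays, from blue (below) to red (above). WT hCG replicate 1 is blue for all rows, and the WT PMSG columns are red or pale for Lrrtm3 and the genes nearest to it.

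No receptor for these peptides showed a response of their size. Of 6 receptor genes (Ntsr1, Ntsr2 and Sort1 for neurotensin, Adcyap1r1, Vipr1 and Vipr2 for PACAP), 0 passed in limma at their brightest probe set in any of the 4 comparisons at an adjusted p under 0.05, and 1, 0, 1 and 0 had an unadjusted p under 0.05 in the bERKO response, the WT response, bERKO against WT after hCG and after PMSG. Over all 18193 genes, 6.63% passed as higher and 11.2% as lower in the bERKO response. An unadjusted limma p under 0.05 was found for 10644, 5417, 5557 and 3282 of all 34945 probe sets in the same 4 comparisons. Adcyap1r1, the receptor specific for PACAP, had intensities of 159, 165 and 195 in bERKO hCG, 73.9, 99.8 and 118 in WT hCG, 54.2, 93.5 and 94.3 in bERKO PMSG, and 69.3, 67.3 and 98.4 in WT PMSG. Its bERKO response on this probe set, its brightest, was 0.72 and did not pass in limma (adjusted p = 0.115). Its other probe sets gave 1.86, which passed, and 0.82, which did not (adjusted p = 0.0192 and 0.0723, limma), and the first was the only 1 of 11 receptor probe sets to pass in the bERKO response. Without bERKO PMSG replicate 3 the brightest probe set's response was 0.99 and passed in limma (adjusted p = 0.0371).

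Ntsr1, the main neurotensin receptor, stayed at 2.11 to 4.53 in bERKO hCG, 1.88 to 33.3 in WT hCG, 2.15 to 2.59 in bERKO PMSG and 2.01 to 7.09 in WT PMSG, near the bottom of the scale. Sort1, a sorting receptor that also binds neurotensin, was present everywhere, at 423 to 1094 in bERKO hCG, 816 to 1053 in WT hCG, 575 to 1053 in bERKO PMSG and 1106 to 1743 in WT PMSG. A signal near the bottom of an array's scale does not show that a transcript is absent.

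Some other neuropeptide precursors rose beside Nts and Adcyap1 in bERKO. Of 28 measured precursors other than these, 6 were higher and 1 was lower in the bERKO response, against 6.63% and 11.2% of all genes. In the WT response 0 and 0 passed, against 0.467% and 0.863% of all genes. There 7 had an unadjusted limma p under 0.05, as did 5417 of all 34945 probe sets. The median over the 28 was -0.10 in bERKO, against -0.19 over all genes, so the middle of the list lay close to that of all genes. Nmu (neuromedin U) had intensities of 1424, 1749 and 1321 in bERKO hCG, 66.3, 933 and 1347 in WT hCG, 15.8, 21.0 and 27.6 in bERKO PMSG, and 21.1, 27.0 and 10.4 in WT PMSG. Its bERKO response was 5.15 (adjusted p = 0.00158, limma).

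Tac1, the precursor of substance P, rose by 4.89 in bERKO (adjusted p = 0.000635, limma), with 4236 to 6020 in bERKO hCG and 53.0 to 188 in bERKO PMSG. Its other probe set gave -1.11, so the probe sets of Tac1 disagreed. Npy (neuropeptide Y) rose by 4.55 and Penk (proenkephalin) by 2.22 (adjusted p = 0.00451 and 0.00724, limma). Gal rose by 2.34 and Pmch fell by 1.45 (adjusted p = 0.0115 and 0.0126, limma), and each call was lost in 2 of the other settings run. Pnoc gave 2.42 (adjusted p = 0.043, limma), a call lost in 9 of them, with any 1 of the 3 bERKO hCG arrays left out among these. On the WT hCG arrays Npy gave 36.3, 103 and 958, the order over replicates 1 to 3 that Adcyap1 had.

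Some genes for making and storing peptides rose. Of 19 measured genes of prohormone processing and secretory granules, 5 were higher and 1 lower in the bERKO response, against 6.63% and 11.2% of all genes, with a median of -0.03 against -0.19 over all genes. The granule membrane protein gene Ptprn rose by 3.80 (adjusted p = 0.000507), the convertase gene Pcsk5 by 2.70 (adjusted p = 0.00159) and the granule protein gene Chgb by 4.50 (adjusted p = 0.0039), all in limma. Pam, whose enzyme amidates peptides such as PACAP, rose by 1.76. The 1 lower gene, Cadps2, gave -1.85 (adjusted p = 0.0171, limma), a call lost in 3 of the other settings run. Ptprn had 265, 278 and 399 in bERKO hCG against 13.7, 13.1 and 94.6 in WT hCG, and its bERKO minus WT difference after hCG of 3.05 passed in limma (adjusted p = 0.0103), though not with log2(intensity + 1) or with only the 2 groups compared (adjusted p = 0.0839 and 0.0517, limma).

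The partners of Snap25 showed no common direction, and their shares lay near those of all genes. Of 44 measured SNARE and vesicle fusion genes, 4 were higher and 6 lower in the bERKO response, against 6.63% and 11.2% of all genes, with a median of -0.09 against -0.19. Without bERKO PMSG replicate 3 the counts were 2 and 3, against 5.80% and 9.18% of all genes. Snap23, the relative of Snap25 found in most tissues, was at 11890 to 13380 in bERKO hCG, 8829 to 13357 in WT hCG, 5997 to 12973 in bERKO PMSG and 8846 to 10042 in WT PMSG, and its bERKO response of 0.62 did not pass (adjusted p = 0.198, limma). The syntaxin genes differed from each other: Stx3 rose by 2.97 (adjusted p = 0.00121, limma), and Stx1a, the usual partner of Snap25 in neurons, had a difference of 0.25 that did not pass (adjusted p = 0.862, limma). Vamp8 fell by 1.84 and Snap47 by 1.35 (adjusted p = 0.00216 and 0.0192, limma; the call of Snap47 was lost without bERKO hCG replicate 1 or 3 or bERKO PMSG replicate 2), and Vamp2 gave 1.10 without passing (adjusted p = 0.0815, limma). The probe sets of Snap23 and of Vamp2 disagreed, with lowest differences of -0.80 and -0.70. Rab27a, a small GTPase that docks granules, rose by 3.17 in the bERKO response (adjusted p = 0.00228, limma).

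Among synaptic adhesion genes other than Lrrn3 and Lrrtm3, 9 of 45 measured genes were higher and 1 was lower in the bERKO response, against 6.63% and 11.2% of all genes, with a median of -0.18 against -0.19 over all genes. Flrt2 and Flrt3, leucine-rich repeat genes, rose by 5.0 and 4.83 (adjusted p = 0.000434 and 0.000528, limma). Slitrk5 rose by 3.18 and Lrrn1, a relative of Lrrn3, by 3.12 (adjusted p = 0.00166 and 0.00177, limma). The 3 probe sets of Lrrn1 disagreed, with differences from -1.08 to 3.12. Lrrtm2, a relative of Lrrtm3, rose by 2.20 (adjusted p = 0.0108, limma), whereas Lrrtm1 (-0.84), Lrrtm4 (-0.45), Lrrn2 (0.48) and Lrrn4 (0.38) did not pass.

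Over the 5 lists, 142 of 150 genes were measured, and 24 passed as higher and 9 as lower in the bERKO response, 0 and 0 in the WT response, 10 and 1 in bERKO against WT after hCG, and 0 and 0 after PMSG. Among all genes, 6.63% passed as higher and 11.2% as lower in the bERKO response, 0.467% and 0.863% in the WT response, 1.25% and 1.25% in bERKO against WT after hCG, and 0.00% and 0.0110% after PMSG. An unadjusted limma p under 0.05 was found for 22 of the 142 genes in the WT response and for 18 after PMSG. Among all 34945 probe sets it was found for 5417 and 3282. Of the 10 higher genes, 8 were synaptic adhesion genes, and the others were Ptprn and Rab27a (3.77, adjusted p = 0.00898, limma). Without WT hCG replicate 1 the count of 10 was 3, and those were Ptprn (2.80), Rab27a (3.39) and Lrrn1 (3.42), against 0.242% of all genes. In the WT response without the same array, 4 of the 142 genes passed as higher in limma, against 0.852% of all genes, namely Nmu (4.88, adjusted p = 0.000157), Pcsk5 (2.34, adjusted p = 0.00561), Flrt3 (2.77, adjusted p = 0.0161) and Pnoc (2.02, adjusted p = 0.0421).

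**Figure D4:**
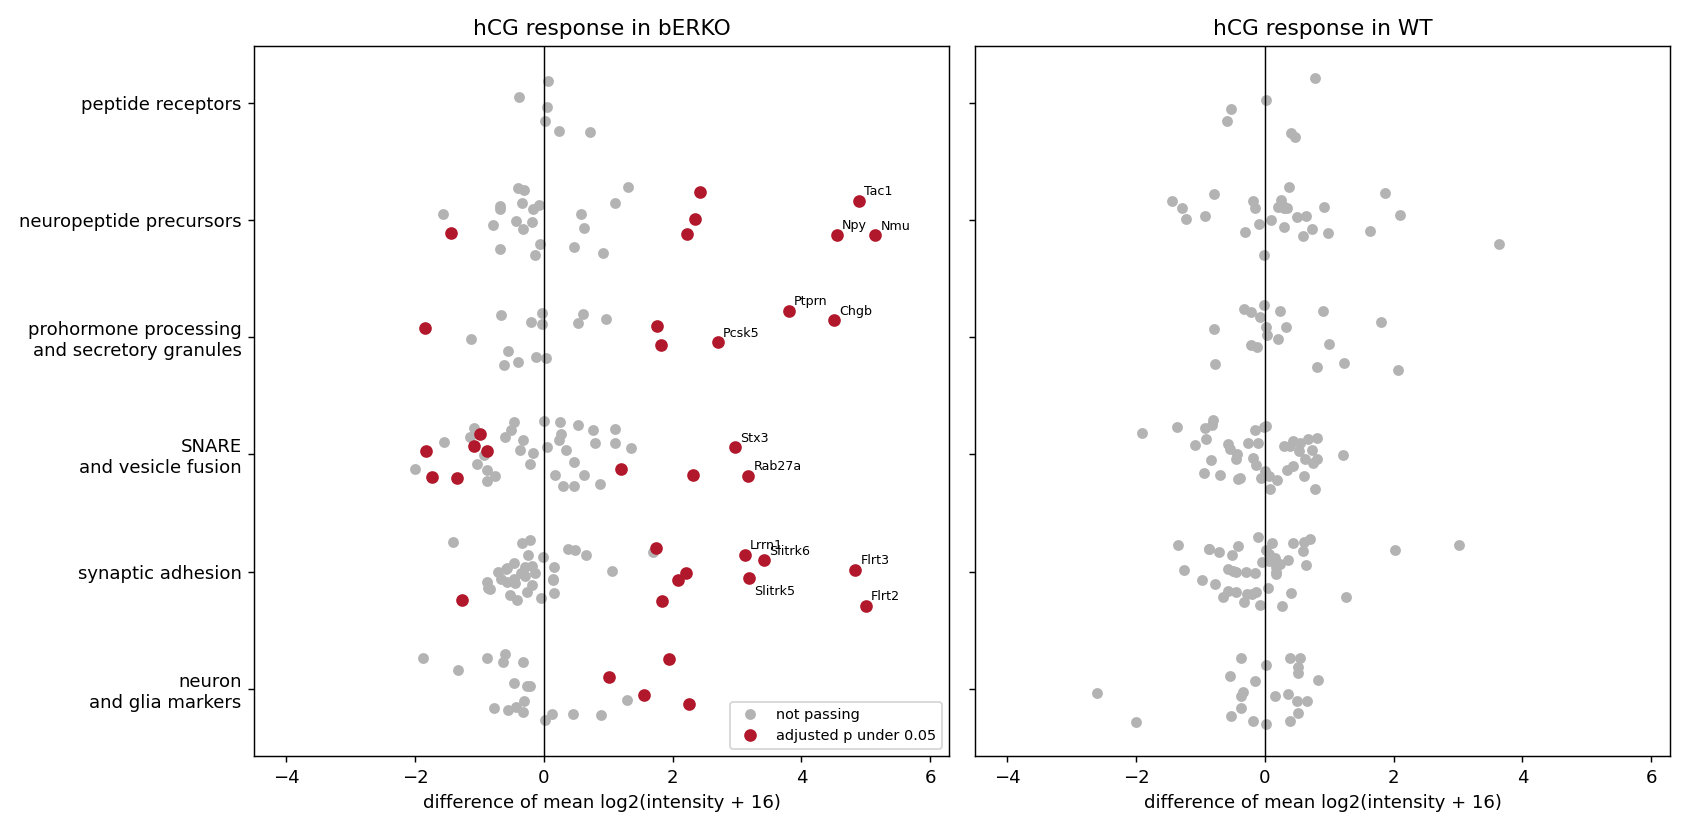
Difference of mean log2(intensity + 16) between hCG and PMSG arrays for each measured gene of the lists named at the left, in bERKO and in WT, with genes passing at an adjusted p under 0.05 (limma) in red. Red points occur on both sides of 0 in bERKO, with the largest on the right, and there are none in WT.

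Markers of neurons and glia were looked at because these genes are known from nerve cells. Of 23 measured markers, 4 were higher in the bERKO response (Fabp7 by 2.26, Ddc by 1.95, Nefl by 1.56 and Nefm by 1.01) and 0 were lower, against 6.63% and 11.2% of all genes, with a median of -0.31 against -0.19. A second probe set gave -0.08 for Ddc and -0.28 for Nefl, so the probe sets of these genes disagreed. Probe sets also differed among markers that did not pass, from 0.28 to 2.82 for Elavl4, -1.18 to 0.83 for Elavl3 and -1.88 to -0.07 for Map2. The summed intensity of the 23 markers was 2213 to 2648 in bERKO hCG, 1787 to 2649 in WT hCG, 2516 to 4632 in bERKO PMSG and 1762 to 2613 in WT PMSG. The sums in bERKO hCG thus lay below or within the range of bERKO PMSG. Th, which marks catecholamine neurons, was under 16 on all arrays of bERKO hCG, and Tubb3, Map2, Uchl1, Ddc and Fabp7 were at 100 or more on all of them. Markers of some other cells were higher in the bERKO hCG group. For the counts that follow, 6.63% of all genes were higher and 11.2% lower in the bERKO response, and 1.25% higher and 1.25% lower in bERKO against WT after hCG. Of 10 endothelial markers, 5 were higher in the bERKO response and 3 in bERKO against WT after hCG (limma), with 0 lower in both. They summed to 1388 to 2769 in bERKO hCG, against 394 to 572 in WT hCG, 185 to 369 in bERKO PMSG and 364 to 702 in WT PMSG. Of 10 stroma and smooth muscle markers, 2 were higher in the bERKO response and 0 in bERKO against WT after hCG. In the latter comparison 5 had an unadjusted p under 0.05 (limma), as did 5557 of all 34945 probe sets. These markers summed to 4009 to 16396 in bERKO hCG, 2038 to 2894 in WT hCG, 937 to 3919 in bERKO PMSG and 662 to 7050 in WT PMSG. Of 10 leukocyte markers, 2 were higher and 1 lower in the bERKO response (limma), and they summed to 674 to 1916 in bERKO hCG, 236 to 483 in WT hCG, 237 to 936 in bERKO PMSG and 178 to 420 in WT PMSG. Of 6 theca markers, 2 were higher and 1 lower (limma), and they summed to 2214 to 4144 in bERKO hCG, 3814 to 4448 in WT hCG, 4727 to 7248 in bERKO PMSG and 4199 to 7392 in WT PMSG.

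Of 11 oocyte markers, 3 were lower in the bERKO response, against 11.2% of all genes, and they summed to 1117 to 2908 in bERKO hCG, 794 to 1474 in WT hCG, 6125 to 19799 in bERKO PMSG and 493 to 5208 in WT PMSG. Of 12 granulosa markers, 5 were lower in the bERKO response and 4 in bERKO against WT after hCG (limma), against 11.2% and 1.25% of all genes. The part of other cells in the levels of the 5 genes was not tested. The mean level of 9 measured ovulatory response markers was 12.4 to 12.7 in bERKO hCG, 6.97 to 11.6 in WT hCG, 5.96 to 6.20 in bERKO PMSG and 5.96 to 6.25 in WT PMSG, and its lowest WT hCG value was on replicate 1. The low levels of Nts, Adcyap1, Snap25 and Lrrn3 on that array thus came with low levels of the ovulatory markers and with the highest Gapdh control ratio, and which of these accounts for them was not tested.

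**Figure D5:**
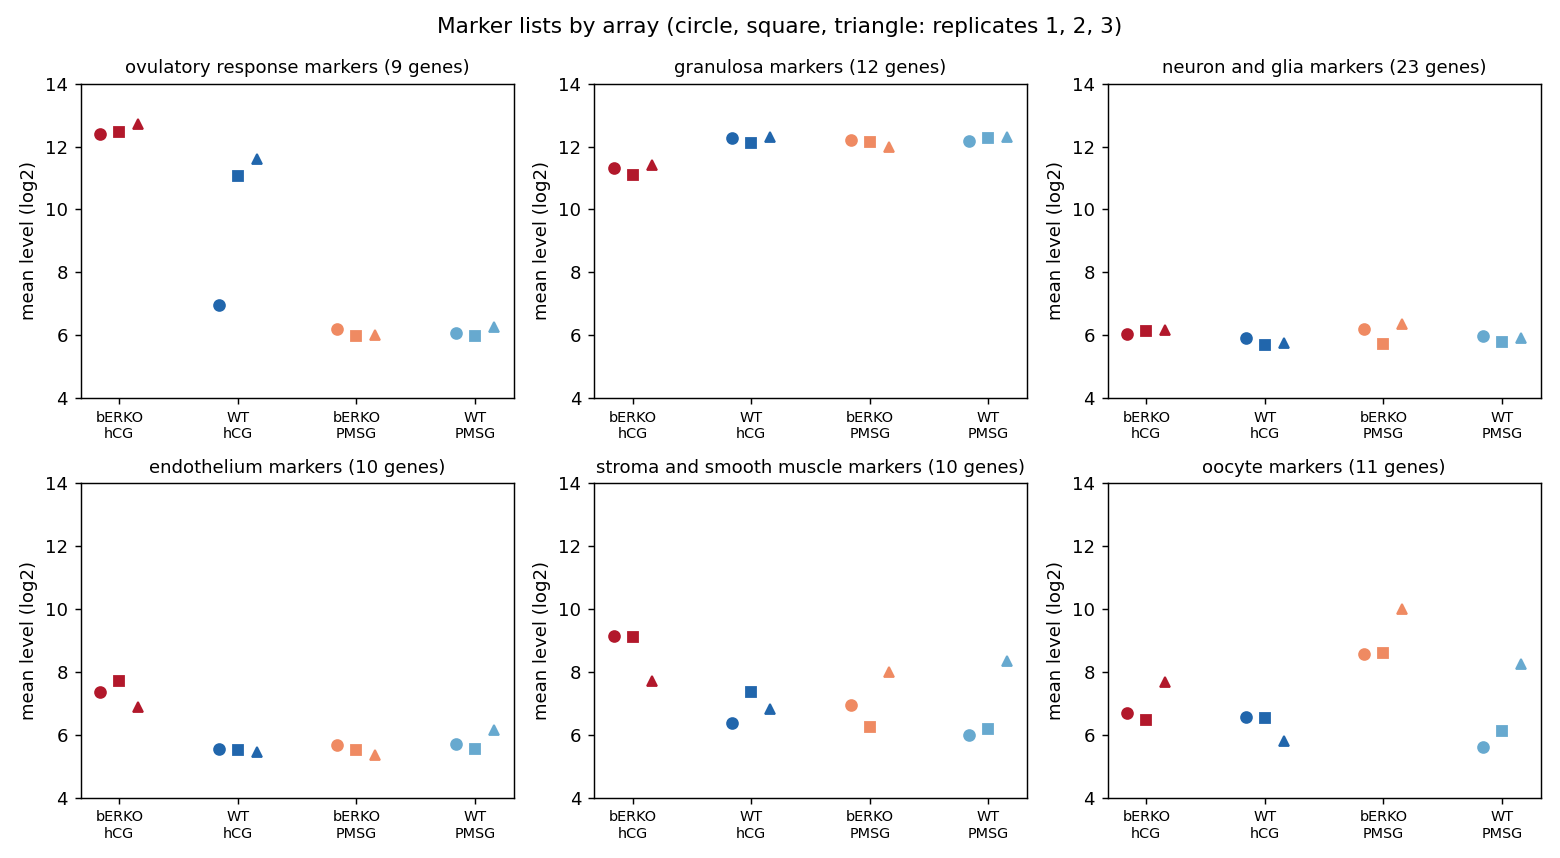
Mean level, as log2(intensity + 16), of 6 marker lists on each array, with circles, squares and triangles for replicates 1, 2 and 3. Ovulatory response markers are highest in bERKO hCG with WT hCG replicate 1 far below its group, and neuron and glia markers lie at about the same level in all groups.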

How the data were processed

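RNA of laser-captured granulosa cells was measured on 12 one-colour arrays. The deposited values are linear intensities, 1 per probe set, which the authors had scaled to a 2% trimmed mean of 500 on every array, as the values show; the software is not named in the labels. Per the labels, amplification started from 25 ng of RNA, so small differences in RNA quality can affect a signal. Of 45101 probe sets, 64 controls were left out. The other 45037 were quantile normalized as linear intensities, since array medians spanned 0.98 on the log2 scale. After that, log2(intensity + 16) was taken. Gene names came from the platform annotation: 34945 probe sets named 1 gene, 932 several and 9160 were not listed. The number of arrays limits the precision.

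Group means were fitted to all 34945 probe sets with limma 3.58.1 (R 4.3.3) over the 12 arrays, and Benjamini-Hochberg adjustment ran over all of them; p-values are two-sided, with 0.05 as the threshold. A list gene was read from the same fit at its probe set with the highest mean, as were the shares over 18193 genes. Replicate numbers did not pair the arrays, and the block on them is in the closing section. Named genes were all probe sets of the 5 genes, Esr2, Pgr, the receptors and listed relatives. They also included, per list and comparison, up to 4 genes with the smallest adjusted p. The 4 nearest genes by profile were added, with predicted and unnamed genes skipped. Other list genes (Gal, Pnoc, Pmch, Pam, Cadps2 and the markers) were picked with their values in view. The genes and lists were chosen with earlier results of these data known. Alternatives were other scalings, offsets of 1 and 64, a filter of 100 on 3 arrays, 1 probe set per gene, only the 2 groups compared, a replicate block and each array left out. Promoters were searched and figures drawn with Python 3.11.15 and matplotlib 3.10.9.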

Additional observations from a re-analysis of the deposited data

Results flagged for a closer look

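Lrrtm3 had hCG minus PMSG differences of opposite sign in the genotypes. On the normalized scale, on all 4 of its probe sets, every bERKO hCG array lay above every bERKO PMSG array and every WT hCG array lay below every WT PMSG array. As deposited, 1434761_at was 189 on WT hCG replicate 3, within the WT PMSG range of 175 to 223. The bERKO response minus the WT response was 6.35 for 1440112_at, 4.65 for 1434760_at, 4.14 for 1434761_at and 3.82 for 1434759_at on the log2 scale. The difference was not tested, because the bERKO response chose the gene.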

How the results depend on the processing

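Of the WT responses, 0 of the 10 probe sets passed as higher, with 0 to 4 when single arrays were left out (4 without WT hCG replicate 1) and 4 without both arrays that stood apart. As lower, 1 passed, with 0 to 3 when single arrays were left out (3 without WT hCG replicate 3), 2 with each array centred on its median, 0 with log2(intensity + 1), 3 with log2(intensity + 64), 2 under the filter, which removed 1434759_at, 0 with 1 probe set per gene, 0 with only the 2 groups compared and 2 without both arrays. Over all probe sets in WT, 145 passed as higher, 2 to 307 with single arrays left out (2 without WT hCG replicate 2), 96 when median-centred, 31 with an offset of 1, 409 with 64, 290 under the filter, 0 with only the 2 groups and 579 without both arrays; as lower, 225 passed, 9 to 394 with single arrays left out, 125 as deposited, 339 when median-centred, 42, 663, 471, 0 and 466 in the same order. The replicate numbers shared no deviation (correlations of -0.10 to 0.14 over 18 pairs); with the replicate block, 42 passed as higher and 65 as lower. List genes in the bERKO response gave 20 to 26 higher and 4 to 10 lower (4 without bERKO hCG replicate 1, 5 without bERKO hCG replicate 3) when single arrays were left out. In WT they gave 0 to 4 higher and 0 to 1 lower; as higher, 1 when median-centred, 1 with an offset of 64, 2 under the filter, 2 with 1 probe set per gene and 7 without both arrays, and as lower 4, 3, 2 and 3 with 64, the filter, 1 probe set per gene and both arrays out. In bERKO against WT after hCG they gave 3 to 12 higher (3 without WT hCG replicate 1 or 2 or bERKO hCG replicate 1 or 2, 4 without bERKO hCG replicate 3, 6 without WT PMSG replicate 2) and 0 to 1 lower, with 2, 2 and 5 higher with an offset of 1, only the 2 groups and both arrays out, and 0 lower as deposited, median-centred, with an offset of 1, with only the 2 groups, with the replicate block and with both arrays out. The share of all genes that passed also moved with the setting. As higher in bERKO against WT after hCG it was 1.25% with all arrays and 0.242% without WT hCG replicate 1. In the bERKO response 6.63% were higher with all arrays and 5.80% without bERKO PMSG replicate 3. Such shares are not given for every setting, so a changed list count alone is not particular to the lists. Of the list calls, 19 of 33 in the bERKO response and 2 of 11 after hCG (Lrrn1 and Rab27a) held in every setting run. Median-centring moved the median of all probe sets in the bERKO response to -0.30, from -0.10. No difference that passed, or whose groups did not overlap, changed sign in the settings run. Signals under about 16 carry little information, so changes of Nts, Snap25, Adcyap1 and Lrrn3 depend on the offset, and the bERKO response of Nts ran from 7.71 to 10.30 over the other settings.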
